A study of Mus musculus with 12 samples.

Results

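The 44 genes described here carry out DNA replication and the S phase of the cell cycle. They were taken by symbol from a list that spans origin licensing, helicase activation, the replicative polymerases, the sliding clamp and its loader, Okazaki fragment joining, nucleotide supply, chromatin assembly behind the fork and the switch from G1 into S phase. A gene was measured through a probe set, a group of short array probes against a transcript, that the platform's annotation names for that gene alone. Of the 44 genes, 43 had such a probe set, among 18193 genes on the array as a whole. No probe set named Chaf1a, the large subunit of chromatin assembly factor 1, alone. All 43 passed the filter on low signals and belong to the 12820 genes tested, although only 35 would have passed on their kidney mean by itself.

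The study compared ways of amplifying small amounts of total RNA for expression arrays. All 12 arrays used here are marked pRS in their titles, a code that the labels leave unexplained. For 3 of them 10 ng of mouse kidney RNA (Ambion) were the starting material. The others started from 10, 3 or 0.3 ng of universal mouse reference RNA, with the supplier spelt Strategene in the labels. Each of these 4 groups holds 3 numbered arrays. The reference is a commercial pool of RNA from cultured cell lines, whereas the kidney RNA is from whole tissue with many cell types. Strain, age and the number of animals behind the kidney RNA are not given in the labels, and neither is whether the numbered arrays came from separate amplifications. Every p-value below therefore measures the spread between these arrays, which may be technical.

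Before a cell divides it copies its genome once. In G1 the origin recognition complex, Cdc6 and Cdt1 load the ring-shaped Mcm2-7 helicase onto origins, and geminin later blocks Cdt1 so that no origin is loaded again. On entry into S phase Cdc45 and the GINS complex join the helicase, primase and the polymerases alpha, delta and epsilon copy the strands, and the clamp Pcna holds polymerases and ligase on the DNA. Many of these genes are switched on together by E2F transcription factors at the boundary between G1 and S. Most cells of an adult kidney are not dividing, while cultured lines divide continuously.

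Each array was scaled to a 2% trimmed mean of 500, and signals are given on that scale. Values of replicate arrays correlated at 0.955 to 0.957 for kidney, 0.963 to 0.965, 0.942 to 0.947 and 0.827 to 0.863 for the reference at 10, 3 and 0.3 ng (Pearson's r of log2 signals across probe sets, which are not independent replicates). The number of arrays limits the precision. A background level of 33.7 was taken from 27 Bacillus control probe sets. The kidney label was checked against 7 tubule markers, the megalin gene Lrp2 and Slc34a1, Umod, Slc12a1, Aqp2, Calb1 and Kap, and all 7 were called higher in kidney. Their summed signal lay between 50088 and 51298 on the kidney arrays and between 157 and 174 on the reference arrays at 10 ng. The endothelial markers Pecam1, Emcn and Kdr and the haemoglobin gene Hbb-b2 were also called higher in kidney. The probe set for the haemoglobin gene Hba-a1 was above background on no array of either RNA and was not tested.

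In kidney RNA the replication genes were lower almost without exception. At equal input of 10 ng, 42 of the 43 members were called lower in kidney than in reference RNA and none was called higher, a call being an adjusted p under 0.05 in limma with Benjamini-Hochberg adjustment over all 27022 probe sets tested. Over all genes tested, 35.6% were called lower and 27.1% higher. The median log2 fold change of the members, kidney minus reference, was -2.92, against -0.19 over all genes tested, and the smallest change was that of Orc1 (-0.68), which was not called. The largest fitted change was that of Dscc1 (-7.12), which has no kidney array above background. With signals under the background level raised to it, Dscc1 had -4.82 as a bound. At an unadjusted p under 0.05 the members counted were again 42 lower and 0 higher, against 38.2% and 29% of all genes. All 3 kidney arrays lay below all 3 reference arrays for 42 members, a pattern that 41.5% of all genes tested showed. The log2 fold change was below -2 for 30 members, below -3 for 20 and below -4 for 7, namely Cdc6, Cdt1, Pold1, Pole, Pole2, Chaf1b and Dscc1. With signals raised to background these counts were 30, 19 and 5, without Cdc6 and Chaf1b. In bulk RNA, fewer cells in S phase and less of these transcripts per cell cannot be told apart.

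The genes of dividing cells outside the list moved the same way. All 7 mitotic markers with a probe set (Mki67, Top2a, Cdk1, Ccnb2, Bub1, Cdc20 and Aurkb) were called lower in kidney, with a median log2 fold change of -5.01. Their summed signal was 667.5 to 897.5 on the kidney arrays against 17829 to 20152 on the reference arrays, and Bub1 was above background on none of the kidney arrays. Of 6 leukocyte markers, 4 were called lower (Ptprc, Cd3e, Cd79b and Ms4a1) and 1 higher (Cd3d). Their summed signals were 8938 to 10228 in kidney and 14722 to 15429 in the reference. Most of these sums came from Cd3e, with means of 6078 in kidney and 10327 in the reference at 10 ng. Cd3d had means of 572 and 31.1. The part of either cell type in the replication result was not tested. Centring every array on its median in place of the deposited scale turned the split over all genes to 27.1% lower and 33.2% higher and moved the median of all genes to 0.07. Relative to the median of all genes the members' median was then -2.74, against -2.73 on the deposited scale.

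**Figure D1:**
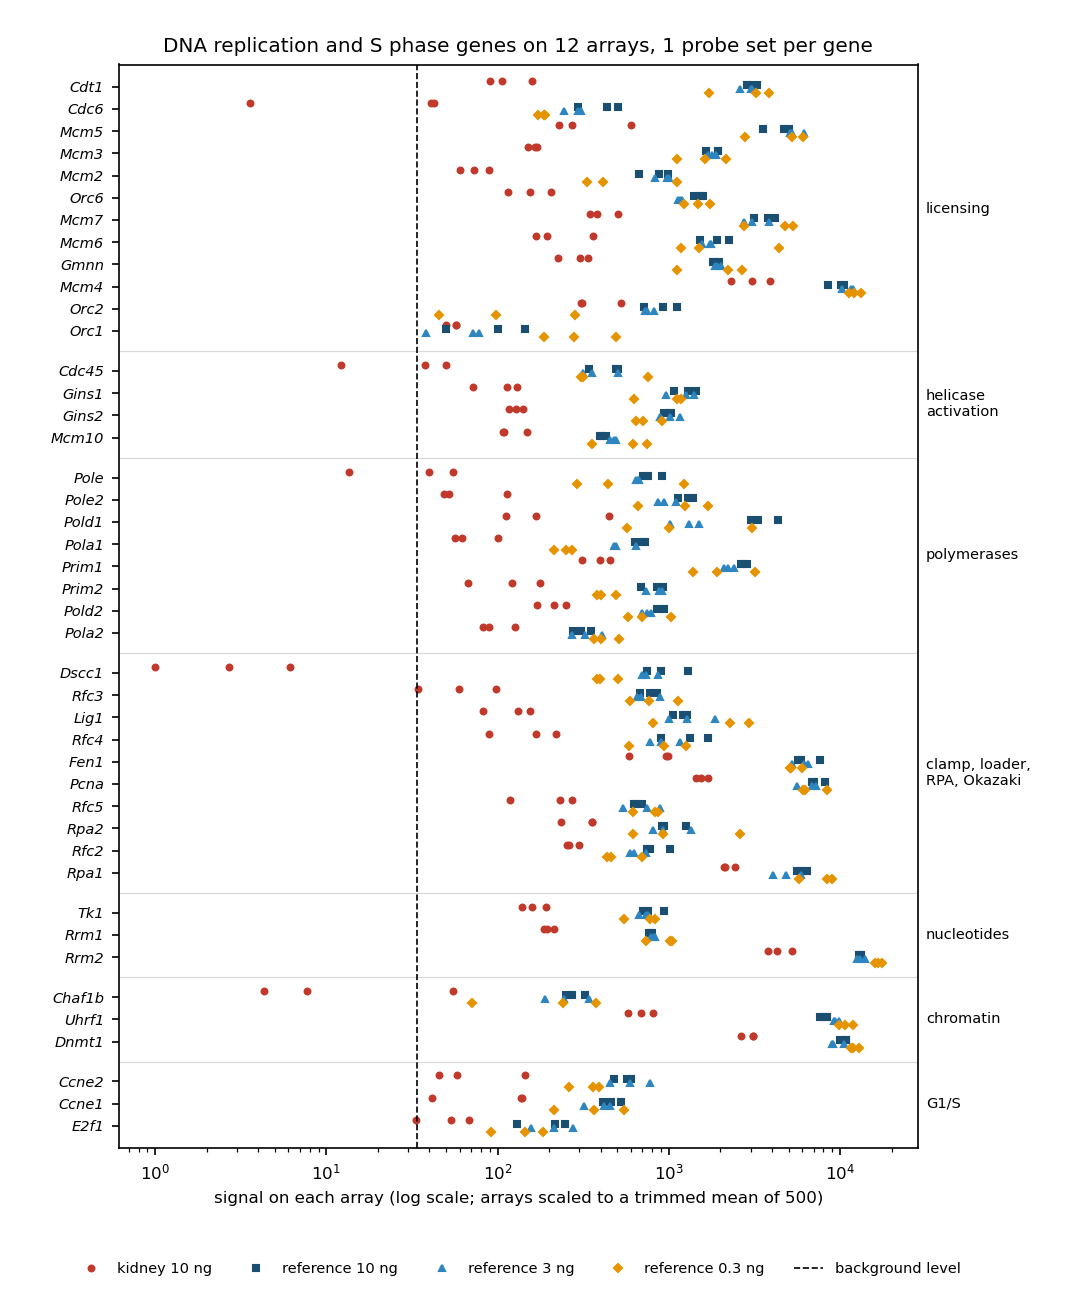
Signal of each of the 43 members (rows, grouped by role) on each of the 12 arrays, on a log axis in units of the array scale; red circles are kidney at 10 ng, and dark blue squares, light blue triangles and orange diamonds are the reference at 10, 3 and 0.3 ng. The dashed line is the background level of 33.7. Kidney points lie to the left of the reference points at 10 ng in every row but Orc1, and the 3 reference inputs mostly overlap.

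The promoters of these genes are shown because the members move together and many are known E2F targets. RefSeq promoter sequence (GRCm38.p6, 250 bases before the start site to 50 from it on) was found for 35 of the 44 members, and Mcm4, Gmnn, Gins1, Gins2, Prim2, Pole, Rfc2, Ccne2 and Dscc1 had no entry. The letters TTTCCCGC, TTTGGCGC, TTTCGCGC and TTTGCCGC, which are forms of the E2F recognition sequence, were searched on both strands, and overlapping matches were counted separately. They occurred in the promoters of 14 of the 35 members, or 40%, against 4.45% of 10328 tested genes and 2.26% of all 32851 promoters. CCAAT, the NF-Y recognition sequence, occurred in 22 members (62.9%, against 42.5% of tested genes), and TTTGAA, the core of the CHR element of late cell cycle genes, in 5 (14.3%, against 14.5%). The stretches that hold the E2F letters before the start site follow, in the direction of the gene, with the matching letters in capitals. A match on the opposite strand is shown as it reads on the strand of the gene.
Mcm5 (chr8:75109341-75109382, + strand): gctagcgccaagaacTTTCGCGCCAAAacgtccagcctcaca
Mcm6 (chr1:128359730-128359830, - strand): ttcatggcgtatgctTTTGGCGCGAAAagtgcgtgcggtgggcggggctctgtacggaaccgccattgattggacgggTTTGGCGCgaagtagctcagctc
Rfc3 (chr5:151651209-151651233, - strand): agtgacgtcgcacgcTTTCGCGCtc
Cdc6 (chr11:98908005-98908028, + strand): ggtggagaGCGGGAAAtcgcctgg
Orc1 (chr4:108579419-108579442, + strand): ggttagtgGCGCGAAAagttttct
Mcm7 (chr5:138172033-138172056, - strand): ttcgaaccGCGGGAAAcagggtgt
Pola1 (chrX:93632278-93632301, - strand): atcacaggGCGCCAAAtgcactcc
Uhrf1 (chr17:56304120-56304143, + strand): gagtcgggTTTCGCGCgcccaggc
Dnmt1 (chr9:20952827-20952850, - strand): ttccgcgcGCGCGAAAaagccggg

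The first 3 of these stretches lie outside the annotated span of their gene. The other 6 lie before the start of a RefSeq transcript but inside the span of the gene, which begins further upstream. Mcm5 and Mcm6 carry matches on both strands that overlap, from 153 and 110 bases before the start site, and Mcm6 has a further match 47 bases before it. In Cdt1, Mcm3, Pold1, Pole2 and Lig1 the letters occurred only after the start site. The 14 members with E2F letters had a median log2 fold change of -3.51 between kidney and reference (range -4.67 to -0.68), and the 20 measured members with a promoter entry but no such letters had -2.16 (range -4.0 to -1.29, the lowest being Chaf1b with 2 of its 3 kidney arrays below background). The difference between these sets was not tested, and a match of letters does not show that a factor binds there.

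**Figure D2:**
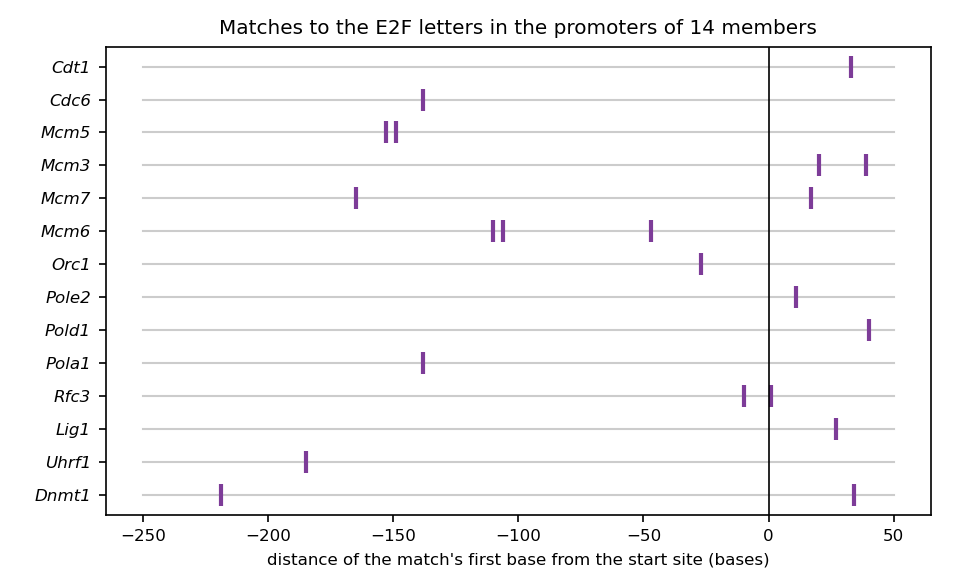
Position of each match to the E2F letters in the promoters of the 14 members that hold them. The horizontal axis is the distance in bases of the first base of a match from the start site (vertical line), each grey line spans the 300 bases searched, and purple bars mark matches. Matches lie on both sides of the start site, from 219 bases before it in Dnmt1 to 40 bases after it in Pold1.

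Origin licensing factors were lower in kidney in 11 of 12 cases, with a median log2 fold change of -3.21. Cdt1, the helicase loader, changed most. It gave signals of 90, 106 and 158 on the kidney arrays, 3259, 2859 and 2954 on the reference arrays at 10 ng, 3041, 2612 and 3015 at 3 ng, and 1711, 3840 and 3238 at 0.3 ng. No kidney array came near any reference array, at whatever input. The kidney mean was 3.9% of the reference mean at 10 ng, a log2 fold change of -4.67 ± 0.23 (SE; limma adjusted p = 4.46e-05). Cdc6, which loads the helicase with Cdt1, had a fitted change of -4.02 ± 0.75 (adjusted p = 0.00558), and 1 of its kidney arrays read 3.6 while the others read 42.6 and 40.7. With that array raised to background its change was -3.37. Geminin (Gmnn), the inhibitor of Cdt1, was also lower, at -2.71 ± 0.18 (adjusted p = 0.000129), and Orc6 at -3.25 ± 0.23.

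The 6 subunits of the Mcm2-7 helicase were all called lower, from -3.69 ± 0.39 for Mcm5 to -1.67 ± 0.22 for Mcm4. Mcm3, which had the most even kidney signals of all members, gave 165, 169 and 151 on the kidney arrays and 1943, 1642 and 1926 on the reference arrays at 10 ng. On this probe set kidney thus kept 8.80% of the reference mean of Mcm3, and the other subunits kept between 8.33% (Mcm5) and 31.9% (Mcm4). The 5 tested probe sets for Mcm3 were all called lower, but their fold changes ran from -4.84 to -2.48. With signals under the background level raised to it, they ran from -4.01 to -0.45. The probe sets of Mcm4, Mcm5 and Mcm6 have names ending in _x_at, by which the platform marks probes that may also match other transcripts, and other probe sets gave -3.55 for Mcm4 and -5.38 and -1.80 for Mcm5.

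Orc1 and Orc2, subunits of the origin recognition complex, differed least. Orc2 gave 308, 525 and 310.2 on the kidney arrays and 923, 1123 and 721 on the reference arrays at 10 ng. The groups did not overlap, and the kidney mean was 41.3% of the reference mean, a log2 fold change of -1.29 ± 0.28 (limma adjusted p = 0.00994). That call was lost when all 12 arrays shared a single estimate of the spread (adjusted p = 0.0709). Orc1, the subunit that marks origins in G1, gave 57.5, 50.2 and 57.1 in kidney and 144, 100.3 and 50 in the reference at 10 ng. The lowest reference array lay below all kidney arrays, and the log2 fold change of -0.68 ± 0.38 was not called (adjusted p = 0.164). Without that reference array, replicate 3, it was -1.08 with an adjusted p of 0.0128. Another probe set for Orc1, 1422663_at, gave 1.4, 3 and 3.1 in kidney against 132, 80.4 and 125 in the reference. All its kidney values lie below background, so its reference signal was at least 3.27-fold higher than the background level.

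The 4 helicase activation factors were all called lower, with a median of -3.25. Cdc45, a core part of the active helicase, gave 12.2, 37.8 and 49.8 on the kidney arrays and 342, 501 and 491 on the reference arrays at 10 ng, with 1 kidney array below background. Its log2 fold change was -3.74 ± 0.48 (limma adjusted p = 0.00129). The other tested probe set for Cdc45 gave -0.47 and was not called. The GINS subunits Gins1 and Gins2 had -3.58 ± 0.26 and -2.92 ± 0.13. Mcm10, which helps to start the helicase, changed least of the 4, with 108, 149 and 109 in kidney and 430.4, 408 and 395 in the reference. Its kidney arrays were still well apart from the reference arrays, at -1.74 ± 0.17 (adjusted p = 0.000452).

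All 8 polymerase and primase subunits were called lower, with a median of -3.02. Pole, the catalytic subunit of the leading-strand polymerase epsilon, gave 39.8, 55 and 13.5 on the kidney arrays and 702, 916 and 756 on the reference arrays at 10 ng. The kidney arrays straddle the background level while the reference arrays lie far above it, and the log2 fold change was -4.48 ± 0.46 (limma adjusted p = 0.000588). Its partner Pole2 and the catalytic subunit of the lagging-strand polymerase, Pold1, had -4.19 ± 0.34 and -4.08 ± 0.51. The smallest change was that of Pola2, the accessory subunit of polymerase alpha, with 82, 88.8 and 126 in kidney and 307, 349 and 277 in the reference. Its groups did not overlap (-1.63 ± 0.20, adjusted p = 0.00117). The remaining members were Pola1 at -3.22, the primase subunits Prim1 and Prim2 at -2.82 and -2.80, and Pold2 at -2.09. Among these members, the 2 subunits of an enzyme thus differed most for polymerase delta and for polymerase alpha. In both the catalytic subunit had the larger fold change, a difference that was not tested. Its size for polymerase delta depends on the probe set. The one used for Pold1 is named _x_at, and the other gave -3.11, or -2.70 with signals raised to background.

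The 10 genes of the clamp, its loaders, single-strand binding and Okazaki fragment joining were all called lower, with a median of -2.59. Dscc1, a subunit of the alternative clamp loader that acts in sister chromatid cohesion, gave 6.1, 2.7 and 1 on the kidney arrays and 742, 1288 and 898 on the reference arrays at 10 ng. It was above background on no kidney array and far above it on every reference array. Against the background level its reference signal was at least 28.2-fold higher (fitted log2 fold change -7.12 ± 0.33, limma adjusted p = 3.97e-05, which depends on the values below background). At the other end Rpa1, the large subunit of the single-strand binding protein RPA, gave 2131, 2445 and 2111 in kidney and 5968, 6396 and 5623 in the reference. Kidney kept 37.2% of the reference mean of Rpa1, and the groups were clearly apart (-1.43 ± 0.13, adjusted p = 0.000378).

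Among the other genes of this role, the clamp itself, Pcna, gave 1550.3, 1450.2 and 1686 in kidney and 7056, 8117 and 6842 in the reference, with a log2 fold change of -2.23 ± 0.14 (limma adjusted p = 9.39e-05). Pcna stayed far above background on every kidney array, with 21.3% of its reference mean. The subunits of the main clamp loader, replication factor C, ranged from -3.62 ± 0.36 for Rfc3 over -3.05 for Rfc4 and -1.73 for Rfc5 to -1.61 ± 0.17 for Rfc2. The flap nuclease Fen1 and the ligase Lig1, which process and join Okazaki fragments, had -2.94 ± 0.25 and -3.28 ± 0.25, and Rpa2 had -1.72 ± 0.23.

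The 3 nucleotide supply genes were called lower, with a median of -1.97. Thymidine kinase 1 (Tk1) gave 139, 191 and 158 on the kidney arrays and 759, 936 and 708 on the reference arrays at 10 ng, and the groups did not overlap (-2.27 ± 0.18, limma adjusted p = 0.000239). Rrm1, the large subunit of ribonucleotide reductase, had -1.97 ± 0.12. Rrm2, the subunit whose level rises in S phase, gave 4274, 3798 and 5250.3 in kidney and 12856, 13252 and 13161 in the reference, so that kidney kept 33.9% of the reference mean (-1.57 ± 0.16, adjusted p = 0.000527). That probe set is named _x_at. The other probe sets for Rrm2 gave -4.14 and -3.59, and on 1448226_at the kidney signals were 183, 331 and 157 against 4249, 3360 and 3863.

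The 3 chromatin genes that could be measured were called lower, with a median of -3.54, or -2.82 with signals under background raised to it. Chaf1b, a histone chaperone subunit that deposits histones behind the fork, gave 7.7, 4.3 and 55.1 on the kidney arrays and 273, 324 and 251 on the reference arrays at 10 ng. Only 1 kidney array was above background, and the log2 fold change of -4.0 ± 0.74 (limma adjusted p = 0.00541) became -2.82 when signals under the background level were raised to it. Uhrf1, which recognises hemimethylated DNA and recruits Dnmt1, had -3.54 ± 0.16, and its kidney mean was 8.6% of the reference mean. Dnmt1, the maintenance methyltransferase, gave 3102, 3119 and 2647 in kidney and 9930, 10756 and 10820.1 in the reference. Kidney kept 28.1% of it, with no overlap (-1.83 ± 0.13, adjusted p = 0.000159). That probe set is named _x_at, and the 3 tested probe sets for Dnmt1, all called lower, ran from -2.77 to -1.44.

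The 3 regulators of entry into S phase were called lower, with a median of -2.27. Cyclin E2 (Ccne2), which activates Cdk2 at the G1 to S boundary, gave 144, 58.3 and 45.6 on the kidney arrays and 478, 571 and 598 on the reference arrays at 10 ng, and all kidney arrays lay below (-2.84 ± 0.42, limma adjusted p = 0.00232). Cyclin E1 (Ccne1) had -2.27 ± 0.48. E2f1, an activating member of the E2F family, gave 33.4, 68.1 and 53.3 in kidney and 129, 248 and 216 in the reference. Its kidney signals lay close to background, 1 of them just below it, and the groups did not overlap (-1.86 ± 0.35, adjusted p = 0.00541). The other tested probe set for E2f1 gave -0.33 and was not called.

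Other probe sets for the same genes mostly pointed the same way. In all, 93 probe sets named a member alone, 83 of them were tested and 79 were called lower in kidney. Of the 29 members with more than 1 tested probe set, 25 had all of them called lower, and the exceptions were Orc1, Cdc45, E2f1 and Rfc2. The size of the change was less stable than its direction. The spread between the fold changes of a gene's probe sets had a median of 0.85 on the log2 scale and exceeded 1 in 13 of the 29 members. Among the wider spreads were those of Cdc45 (3.28) and Rrm2 (2.57). The fitted spreads of Dscc1 (4.11), Mcm5 (3.58) and Orc1 (3.49) each involve a probe set with at most 1 kidney array above background. With signals raised to background the spread was widest for Mcm3 (3.57), whose 5 probe sets then ran from -4.01 to -0.45. It was 2.82 for Dscc1, 2.8 for Mcm5, 2.97 for Cdc45 and 2.59 for Rrm2, and it exceeded 1 in 12 members. The 15 tested probe sets named _x_at had a median of -2.27, with 13 called lower. The 50 named _at without a further letter had -2.77, with 48 called lower. Probe sets named _x_at also stand for Fen1 and Ccne1, whose other tested probe sets gave -3.44 and -1.95.

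**Figure D3:**
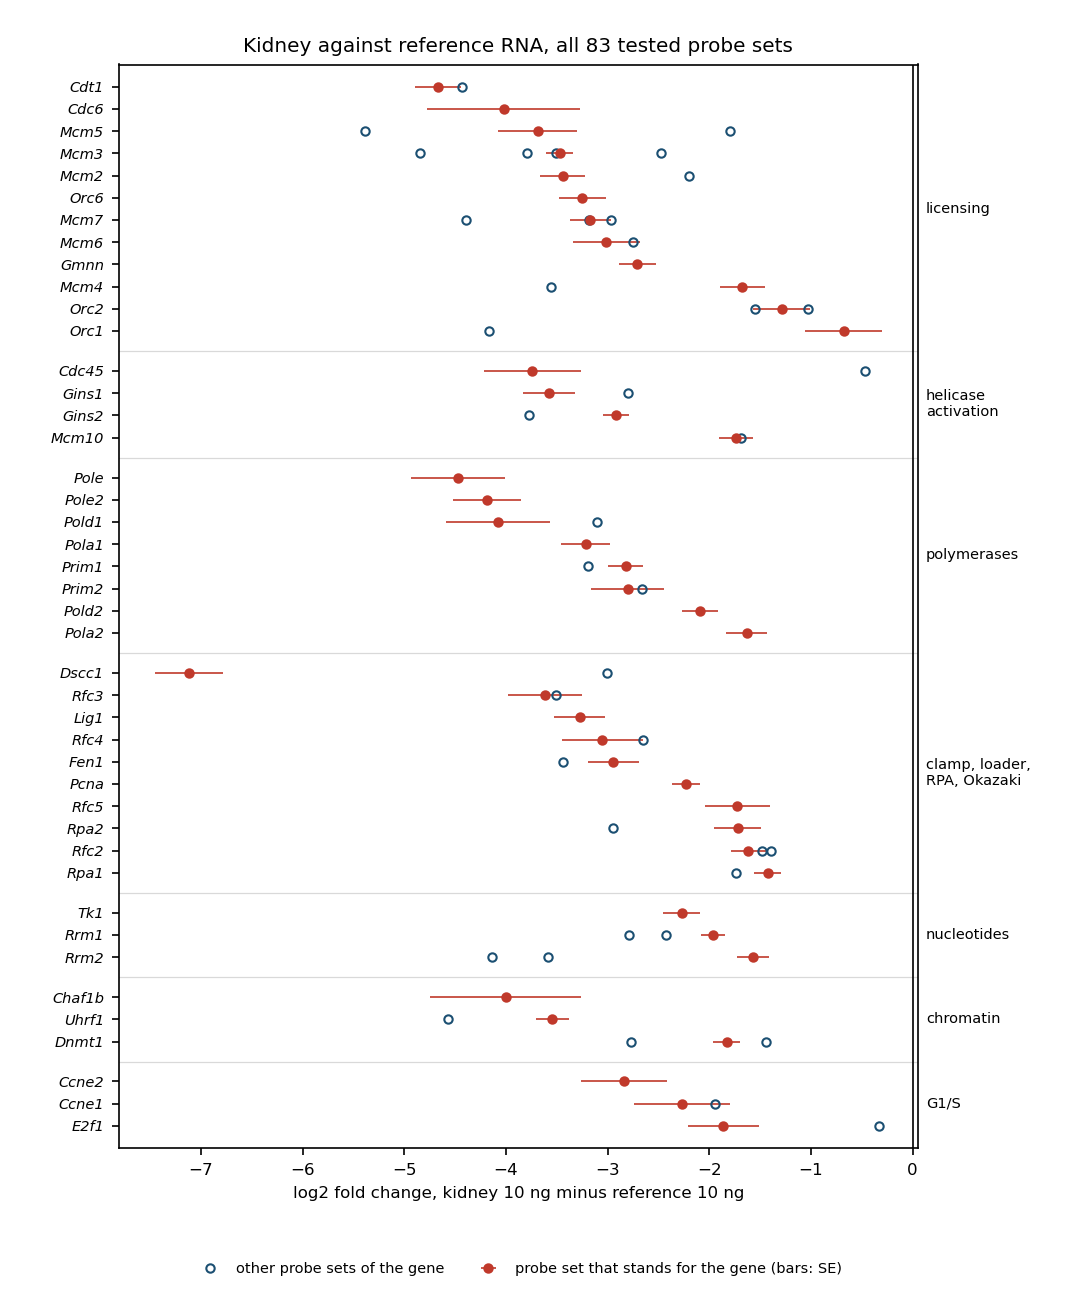
Log2 fold change, kidney 10 ng minus reference 10 ng (horizontal axis), for all 83 tested probe sets that name a member alone. Filled red points with bars (SE) are the probe set that stands for the gene, and open blue circles are its other probe sets. All points lie left of 0, and the rows of Dscc1, Mcm5, Orc1 and Cdc45 show wide gaps between probe sets, which for Dscc1, Mcm5 and Orc1 involve kidney signals below background.

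Most replication genes were above background in kidney, at a share near that of all genes tested. With the background level at 33.7, 37 of the 43 members were above it on all 3 kidney arrays, or 86%, against 89.4% of all genes tested. Cdc6, Cdc45, Pole and E2f1 were above it on 2 of the 3 arrays, Chaf1b on 1 and Dscc1 on none. With the 90th percentile of the control probe sets as background the count was 38 of 43, against 11593 of the 12820 genes tested. With their maximum of 50.4 it was 32 of 43, against 10925 of 12820. It was 24 when every tested probe set of a gene had to be above background on all 3 arrays. That last count was not made over all genes. The kidney mean as a percentage of the reference mean at 10 ng had a median of 13.2% over the members, up to 55.9% for Orc1, and was under 10% for 14 members. For Dscc1, with all kidney signals below background, the share was at most 3.54%. All 43 members were above background on every reference array at each input. Over all genes tested, 89.1%, 88.7% and 78% were above it on all 3 reference arrays at 10, 3 and 0.3 ng. The filter kept genes by their highest group mean, and all 43 members passed it on their reference mean at 10 ng. Their detection in the reference was therefore partly fixed by the filter.

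Other genes of the replication pathway, listed by function, were lower in kidney in most cases but not throughout. Of 29 tested other replisome and origin genes, 22 were called lower in kidney, none higher and 7 not called, with a median of -1.57. The largest fitted changes were those of the fork protein Wdhd1 (-5.14), the checkpoint mediator Clspn (-4.60) and Dbf4 (-4.35), the activator of the kinase Cdc7. Wdhd1 and Clspn were each above background on 1 kidney array, and with signals raised to background they had -3.61 and -3.71, against -4.43 for Dbf4. Dbf4 gave 34.2, 153 and 104 in kidney and 1747, 1814 and 1732 in the reference, without overlap. The 7 genes not called were Mcm9, Mcmbp, Pold3, Pole4, Rnaseh2b, Rnaseh2c and Top1, with log2 fold changes between -0.40 and 0.52.

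Of 9 other nucleotide supply genes, 7 were called lower and 2 not called, with a median of -0.83. Dut, which removes dUTP before it can enter DNA, gave 335, 325 and 328 in kidney and 3920, 4505 and 3926 in the reference (-3.63 ± 0.12, limma adjusted p = 1.69e-05). It stood apart from the next of the list, the thymidylate kinase Dtymk (-1.78) and the dNTP hydrolase Samhd1 (-1.38). The p53-induced reductase subunit Rrm2b and the mitochondrial kinase Tk2, which supply nucleotides outside S phase, had 0.06 (adjusted p = 0.716) and -0.42 (adjusted p = 0.179).

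Of 22 other E2F, cyclin and S phase regulators, 14 were called lower, 2 higher and 6 not called, with a median of -1.81. The repressors E2f8 and E2f7 had fitted values of -6.21 and -5.23, or -4.77 and -4.30 with signals raised to background. E2f8 was above background on no kidney array and E2f7 on 1. Dtl, part of the ligase that degrades Cdt1 in S phase, had -5.14. Dtl gave 114, 122 and 185 in kidney and 4971, 4952 and 4942 in the reference. The retinoblastoma protein gene Rb1 and its relative Rbl2, which hold E2F targets off in resting cells, were the 2 called higher in kidney, at 0.64 ± 0.16 (limma adjusted p = 0.0178) and 0.71 ± 0.23 (adjusted p = 0.0376). Rb1 gave 1892, 1792 and 2286 in kidney and 1364, 1106 and 1362 in the reference. The relative Rbl1, in contrast, was called lower, at -1.85 ± 0.13.

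Of 11 other S phase chromatin genes, 8 were called lower and 3 not, with a median of -1.76, led by the remodeller Hells (-4.85), the histone chaperone Asf1b (-4.21) and the Pcna-binding protein Pclaf (-3.91). Pclaf gave 333, 329.5 and 328 in kidney and 5016, 4851 and 5157 in the reference. The chromatin subunits Rbbp4 and Rbbp7, which also serve outside replication, had -0.16 and -0.34 and were not called, nor was the de novo methyltransferase Dnmt3a (0.09). Of 9 tested cell cycle inhibitors, 8 were called lower as well and 1 not called, with a median of -1.63. Cdkn2a (fitted -2.96, with no kidney array above background and -2.36 with signals raised to it), Cdkn1a (-2.46) and Btg2 (-2.24) led them. Cdkn1a, which encodes p21, gave 313, 477 and 438 in kidney and 2431, 2121 and 2148 in the reference. Cdkn1c did not pass the filter, with signals of 66.5, 32.9 and 51.8 in kidney and 3, 8 and 9.8 in the reference.

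Reference RNA at 3 ng gave nearly the same picture of the replication genes as at 10 ng. None of the 43 members was called lower or higher by limma, as over all genes tested (0% lower and 0% higher). At an unadjusted p under 0.05, Orc6 and Pold1 were lower and none higher, against 5.3% and 3.17% of all genes. The members' median was -0.14 on the log2 scale, against -0.05 over all genes. The 3 ng mean lay between 67% and 150% of the 10 ng mean for 41 of 43, and between 50% and 200% for 42. These shares were not counted over all genes. All 3 arrays at 3 ng lay below all 3 at 10 ng for 7 members (Orc6, Prim1, Pold1, Pold2, Pole, Pole2 and Rfc2) and above for 3 (Mcm5, Mcm10 and Uhrf1), patterns that 11% and 6.59% of all genes showed. Of the 7, none was called and 5 are polymerase or primase subunits. Whether that role differs from other genes at 3 ng was not tested.

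Pold1 differed most between 3 and 10 ng. It gave 3034, 4328 and 3299 at 10 ng and 1309, 1495 and 1021 at 3 ng. The groups did not overlap and the 3 ng mean was 35.9% of the 10 ng mean, but the log2 fold change of -1.48 ± 0.22 was not called (limma adjusted p = 0.231). At 0.3 ng the same probe set gave 3066, 1004 and 572, which reach from within the 10 ng values to below those at 3 ng. Another probe set for Pold1, 1448187_at, gave -1.06 ± 0.36 between 3 and 10 ng (adjusted p = 0.435).

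At 0.3 ng all 43 members were above background on all 3 arrays, against 78% of all genes tested. All 43 also passed the filter on their reference mean at 0.3 ng, so that count was partly fixed by the filter. None of the 43 members was called lower or higher against 10 ng by limma, where 0.546% and 0.0078% of all genes were. At an unadjusted p under 0.05, 6 were lower (Cdc6, Orc2, Pola1, Prim2, Ccne2 and Dscc1) and 1 higher (Orc1), against 11.6% and 1.81% of all genes. With all 12 arrays in 1 fit, Orc2, Pola1 and Dscc1 were called lower. The members' median was -0.17, against -0.21 over all genes. The 0.3 ng mean lay between 67% and 150% of the 10 ng mean for 33 of 43, fewer than the 41 at 3 ng. It lay between 50% and 200% for 37, against 42 at 3 ng. These shares were not counted over all genes. Without overlap, 8 were lower (the 6 above, Gins2 and Rfc2) and 6 higher (Mcm4, Orc1, Pola2, Rrm2, Uhrf1 and Dnmt1), patterns of 17.8% and 7.46% of all genes. The sign of small shifts depended on the scale, since centring the arrays on their medians gave a members' median of 0.26 and one of 0.23 over all genes.

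Orc2 lost most of its signal at 0.3 ng. Its arrays read 923, 1123 and 721 at 10 ng, 750.4, 821 and 728 at 3 ng, and 97.4, 283 and 45.7 at 0.3 ng. The lowest inputs lay below every other array of either RNA, and their mean was 15.4% of that at 10 ng. The log2 fold change was -3.01 ± 0.66 and was not called (limma adjusted p = 0.124), with an SD of 1.27 on the log2 scale among the 0.3 ng arrays. Without replicate 2 at 0.3 ng, the highest of them, it was -3.68 and called (adjusted p = 0.044). The other probe sets for Orc2 gave -1.06 and -0.92 (adjusted p = 0.312 and 0.208).

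Pola1, the catalytic subunit of polymerase alpha, had lower signals at each lower input on average. It gave 636, 709 and 724 at 10 ng, 644, 494 and 477 at 3 ng, and 252, 272 and 213 at 0.3 ng. The arrays at 0.3 ng lay below all other reference arrays, at 35.6% of the 10 ng mean. The log2 fold change of Pola1 was -1.48 ± 0.23 (limma adjusted p = 0.0646). Dscc1 gave 395, 506 and 378 at 0.3 ng, 43.7% of its 10 ng mean (-1.16 ± 0.30, adjusted p = 0.163), and Cdc6 gave 187, 189 and 172, or 44.4% (-1.12 ± 0.28, adjusted p = 0.153). Orc1 went the other way, with 493, 186 and 280.4 at 0.3 ng against 144, 100.3 and 50 at 10 ng. All 3 arrays at 0.3 ng lay above, yet the log2 fold change of 1.67 ± 0.53 was not called (adjusted p = 0.224), and 1422663_at for Orc1 gave 0.15 ± 0.71.

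**Figure D4:**
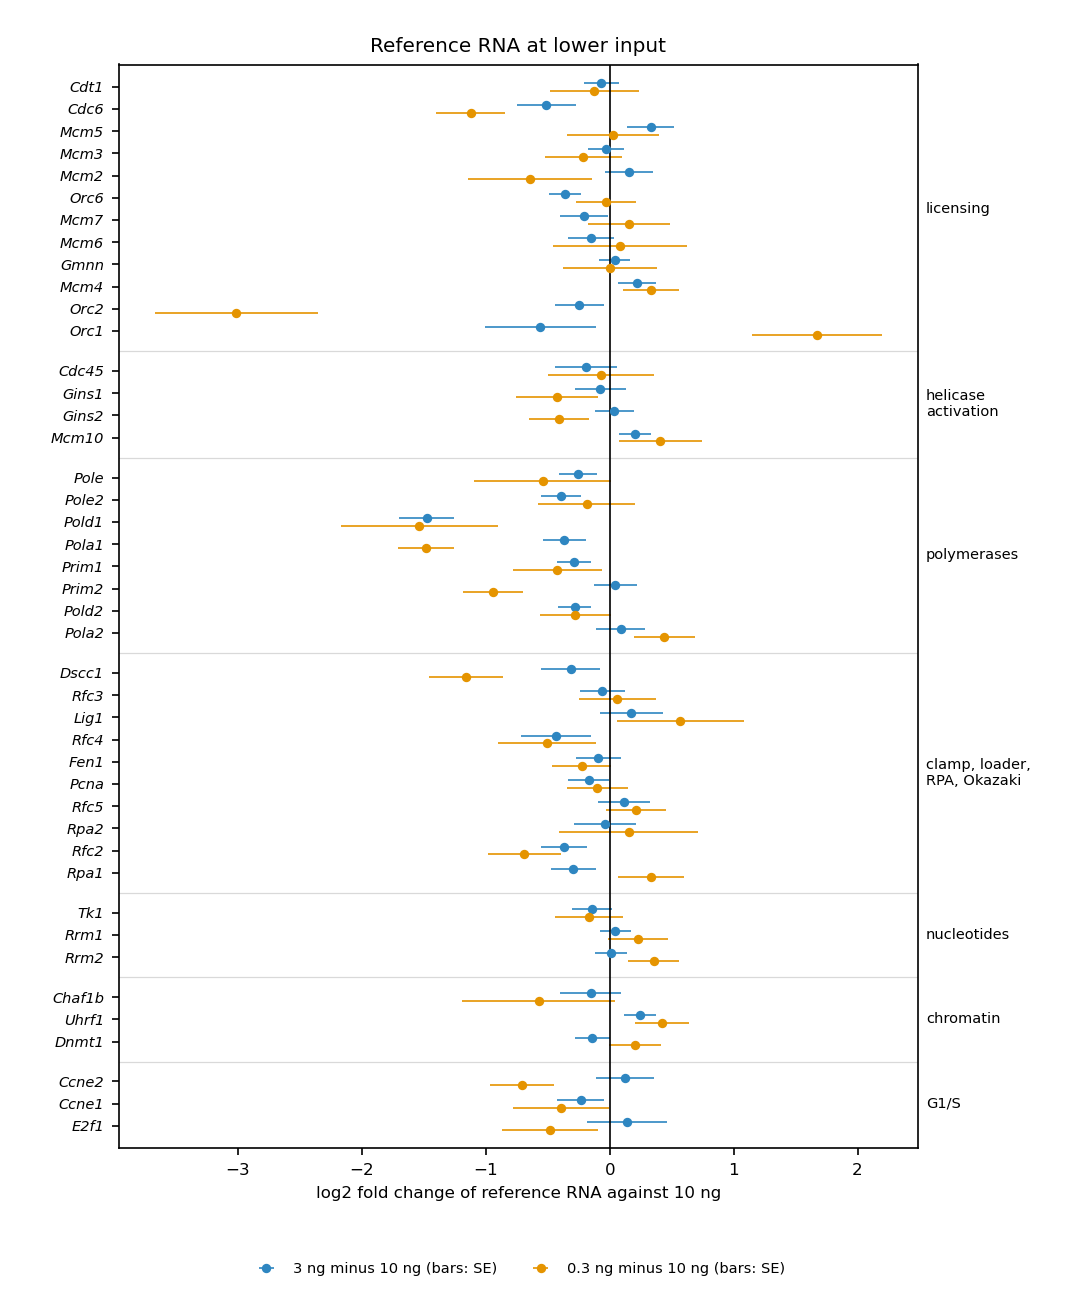
Log2 fold change of the reference RNA at 3 ng (blue) and 0.3 ng (orange) against 10 ng for each member, with bars for the SE. Both comparisons use the same 3 arrays at 10 ng. Most points lie within 1 of 0 on the log2 scale, Pold1 lies at -1.48 at 3 ng, and Orc2 at -3.01 and Orc1 at 1.67 stand furthest out at 0.3 ng.

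Between 0.3 and 3 ng no member was called either (limma; 0.164% of all genes lower and 0.0078% higher). At an unadjusted p under 0.05 there were 6 lower and 1 higher, against 9.2% and 1.68% of all genes. This comparison shares its 0.3 ng arrays with the previous one, so the values are given side by side only. Orc2 had -2.77 against 3 ng and -3.01 against 10 ng, Pola1 -1.11 and -1.48, and Orc1 2.23 and 1.67. The members' median against 3 ng was -0.04.

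The spread between replicate arrays of the members depended on the RNA as well as on its amount. The SD of log2 signals within a group had a median of 0.17 over the members at 10 ng, 0.16 at 3 ng and 0.47 at 0.3 ng in the reference, against 0.21, 0.27 and 0.61 over all genes tested. In kidney at 10 ng it was 0.41 for the members, against 0.20 over all genes. The members' signals there are also lower, with a median of the members' mean signals of 159 in kidney and 992 in the reference at 10 ng. At 0.3 ng the SD exceeded 1 for 6 members, with Orc2 at 1.27, Pold1 at 1.23 and Chaf1b at 1.21 the highest, and stayed under 0.1 for Cdc6 (0.07), Rrm2 (0.06) and Dnmt1 (0.08). In kidney it was highest for Chaf1b (1.52) and Cdc6 (1.5). The tests assume equal spread in both groups, which the 0.3 ng arrays do not meet. For the members, kidney and reference at 10 ng also differ in spread. The SD exceeded 0.5 for 15 members in kidney and for 1 in the reference at 10 ng.

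**Figure D5:**
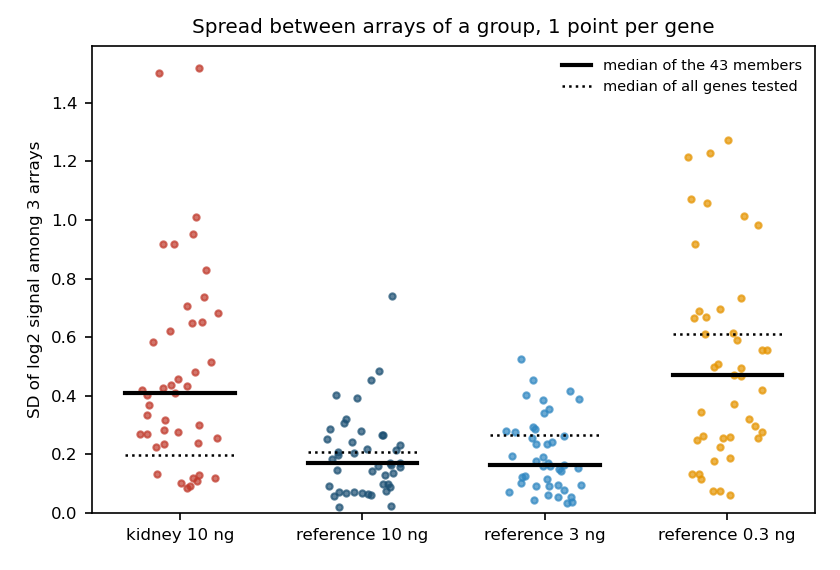
SD of log2 signals among the 3 arrays of each group, with 1 point per member; points are spread sideways for legibility. Solid bars are the medians of the 43 members and dotted bars those of all genes tested. The members' median lies above that of all genes in kidney (0.41 against 0.20) and below it at 0.3 ng (0.47 against 0.61).

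Kidney at 10 ng was also lower than the reference where the reference was given less RNA. Here tissue and input change together, and the kidney arrays are those used above. Against 3 ng, 42 members were called lower (31.4% of all genes) with a median of -2.85, and 42 lay without overlap below the reference (38.4% of all genes). Orc1 was again not called, and Ccne1 was not called without replicate 2 at 3 ng (adjusted p = 0.0524). Against 0.3 ng, 39 members were called lower (16.7% of all genes) with a median of -2.51, and 42 lay without overlap below (27.1% of all genes). Pold1 (-2.54, limma adjusted p = 0.0538), Rpa2 (-1.87, 0.0517) and Ccne1 (-1.88, 0.0566) missed the threshold. Orc2 alone had higher signals in kidney at 10 ng than in the reference at 0.3 ng on all arrays, by 1.72 on the log2 scale (adjusted p = 0.101). Without replicate 2 at 0.3 ng that difference was 2.40 and called (adjusted p = 0.0193), and it rests on the low 0.3 ng values given above.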

How the data were processed

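Arrays were assigned to 4 groups of 3 from their titles. The authors deposited a table of the whole series that holds an intensity on a linear scale for every probe set on every array. The values were found to share a 2% trimmed mean of 500 on every array and not to be quantile normalized. The sources used here do not give the software, background correction or amplification protocol. Intensities were used as deposited, as log2(signal + 3.9), where 3.9 is the 10th percentile of positive values. Fold changes of low signals are understated on that scale.

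Of 45101 probe sets, 64 controls were left out, and those with the highest group mean above its 40th percentile (signal 65.4) were tested, 27022 in all. Each comparison used limma 3.58.1 (lmFit and eBayes, R 4.3.3) on the 6 arrays of its groups, two-sided, with Benjamini-Hochberg adjustment and a threshold of 0.05. Simulated data were used to test the code. Genes were named from a platform annotation in which 34945 probe sets have 1 symbol, 932 several and 9160 none; symbols of all 43 measured members matched RefSeq by gene number. A gene is represented by its tested probe set with the highest mean. Signals of different probe sets are not compared. Background is the 95th percentile of the Bacillus controls over all arrays. Members given in full are those with the largest and smallest called change in each role, members not called, and the 3 largest changes and any opposite call in each further list. Other genes given array by array (Mcm3, Pcna, Cdkn1c and, at low input, Pold1, Pola1, Cdc6 and Dscc1) were chosen after their values were seen. The members, their roles and all lists were chosen with earlier results of these data known. Alternatives were the pseudocount, scaling, filter, arrays in the fit, array weights, probe set, replicate block and leaving out each array. Added after seeing the data was leaving out probe sets named _x_at or _s_at.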

Additional observations from a re-analysis of the deposited data

How the results depend on the processing

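The count of members called lower in kidney at 10 ng stayed at 41 to 43 under every alternative run, and leaving out each array in turn gave 42 to 43. The replicate numbers do not pair the arrays, since the correlation of same-numbered deviations ran from -0.0629 to 0.0159, and with the number as a replicate block 42 members were called lower (median -2.92). Against the reference at 0.3 ng the block gave 38, with Pold1 gained and Rfc2 and E2f1 lost. The members' median in kidney against 10 ng was -2.77 after quantile normalization, -2.67 after centring, -2.61 with the mean of a gene's probe sets (41 members tested) and -3.02 to -2.75 leaving out each array. Against 3 ng it was -2.69 with a pseudocount of 16, -2.70 after quantile normalization, -2.51 after centring, -2.58 with the mean of probe sets and -2.86 to -2.64 leaving out each array. Against 0.3 ng it was -2.36, -2.70 and -2.71 for the pseudocount of 16, centring and the mean of probe sets, -2.71 without probe sets named _x_at or _s_at, and -2.52 to -2.32 leaving out each array. Orc1 against 3 ng, -0.12 as reported, reversed to 0.21 after quantile normalization, 0.22 after centring, and 0.057 and 0.0039 without replicates 1 and 2 of the reference at 3 ng, and ran from -0.423 to 0.057 leaving out each array. With the mean of probe sets Orc1 was called lower at 10 ng (-2.42, limma adjusted p = 0.00016).

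Within the reference, centring moved the median to 0.26 (0.3 against 10 ng) and 0.49 (0.3 against 3 ng). The latter was 0.10 without probe sets named _x_at or _s_at and -0.0795 to 0.0614 leaving out each array. With all 12 arrays in 1 fit, 3 members were called lower against 10 ng, and 2 lower and 1 higher against 3 ng. Leaving out each array gave 0 to 1 called lower against 10 ng, Orc2 without replicate 2 at 0.3 ng. For kidney against 0.3 ng, Orc2 was the 1 member called higher with all 12 arrays and without replicate 2 at 0.3 ng, so that leaving out each array gave 0 to 1. Calls lower there numbered 33 to 42 over the alternatives (33 with array weights per group). The count of members above background on all kidney arrays was 24 when every tested probe set had to pass. The cause of these shifts was not tested. Dscc1, Chaf1b, Cdc6, Cdc45, Pole and E2f1 were not above background on all kidney arrays, so the size of their fitted change depends on values below it. Whether the wider spread at 0.3 ng accounts for the lack of calls there was not tested.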
